A study of Sus scrofa with 48 samples.

Results

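The comparison set the 16 livers with the highest acute-phase score against the 16 livers with the lowest, out of 48 pig livers measured with 1 array each. The score of an array was the mean z-score of 8 acute-phase genes (CRP, HP, ITIH4, LBP, ORM1, SAA1, SAA3 and SERPINA3), so the 32 pigs compared were chosen by measured expression and not by a treatment. The animals were Large White pigs of 2 lines divergently selected for residual feed intake (RFI, the feed eaten beyond what growth and maintenance predict), the low RFI line (RFIneg) and the high RFI line (RFIpl). Per line, 12 pigs ate a diet rich in fat and fiber (HF, called high-fat here) and 12 a diet poor in both (LF, called low-fat), always ad libitum. No group outside these lines was analysed here. Each array was hybridised with RNA of 1 pig, so that n counts pigs. In whole liver, fewer cells of a type and less RNA per cell cannot be told apart.

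The acute-phase response is the change in plasma proteins that follows infection, injury or inflammation. Cytokines, IL6 above all, act on hepatocytes through JAK kinases and the transcription factor STAT3, and the liver then secretes more of the positive acute-phase proteins and less of the negative ones. In pigs, CRP, serum amyloid A, haptoglobin and ITIH4 (also called pig major acute-phase protein) are used as blood markers of it.

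The 60-base probes that gave the score are shown because every array was sorted by these 8 readings. They are printed as in the scanner output, and the capitals in SAA1 and SAA3 mark the longest run of bases that both probes hold.
CRP: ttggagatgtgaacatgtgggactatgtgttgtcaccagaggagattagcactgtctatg
HP: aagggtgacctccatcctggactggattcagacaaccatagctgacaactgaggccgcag
ITIH4: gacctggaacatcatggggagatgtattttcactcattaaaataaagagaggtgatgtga
LBP: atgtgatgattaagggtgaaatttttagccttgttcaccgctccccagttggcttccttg
ORM1: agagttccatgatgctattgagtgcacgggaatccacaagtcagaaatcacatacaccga
SAA1: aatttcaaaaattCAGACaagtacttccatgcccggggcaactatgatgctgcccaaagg
SAA3: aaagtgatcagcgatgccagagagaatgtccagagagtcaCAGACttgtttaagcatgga
SERPINA3: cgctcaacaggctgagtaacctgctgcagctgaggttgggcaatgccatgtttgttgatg
The longest run shared by the SAA1 and SAA3 probes was 5 bases. Their readings nevertheless moved almost as one measure across the 48 arrays (Pearson r = 0.996, Spearman rho = 0.99, given as a description), so that serum amyloid A counted with a weight of 2 genes in the score. Whether both probes read the same transcripts was not tested.

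The score ranged from -0.93 to 2.45 over the 48 arrays. The highest value belonged to a pig from the high RFI line fed the low-fat diet, and the next array was at 1.19. At the edges of the groups, the last array of the high group scored 0.18 and the first array left in the middle 0.11, while the last array of the middle scored -0.35 and the first array of the low group -0.36. The groups therefore touch a continuous scale, and the lower edge in particular parts arrays with nearly equal scores. By line, 6 high arrays were of low RFI pigs and 10 of high RFI pigs, against 10 and 6 of the low arrays. For diet, the high group held 9 pigs fed the high-fat diet and 7 fed the low-fat diet, and the low group held 8 and 8. Among pigs from the low RFI line fed the low-fat diet, 1 was in the high group and 5 were in the low group.

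The slides were not evenly shared. The arrays lay on 6 slides of 8, and slides 1 to 6 held 1, 2, 4, 3, 4 and 2 of the high arrays and 6, 0, 0, 3, 2 and 5 of the low arrays. The median intensity of an array, over all probes, ran from 53 to 108.5 (median 69.5) in the high group and from 69 to 126.4 (median 88.5) in the low group. On the log2 scale the mean was 6.15 ± 0.23 (SD, n = 16) in the high group and 6.46 ± 0.25 (SD, n = 16) in the low group, a difference of -0.31. This difference is given with no test, since the score takes the array median away from every reading and so is not independent of it. Whether array brightness moved the score was not tested. With slide as a term the difference was -0.10. Of the 4 slides that held both groups, the high arrays were brighter on slides 1 and 4 (by 0.06 and 0.07) and dimmer on slides 5 and 6 (differences of -0.24 and -0.24). The share of probes well above background, was 71.8% in the high group and 71.6% in the low group (2-sided permutation test of 100000 draws, P = 0.825). Slide 1, with 6 low arrays and 1 high array, was the brightest slide (median 99.9). The part of array brightness in the called genes was not tested apart from the fits with intensity or slide as a term.

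**Figure D1:**
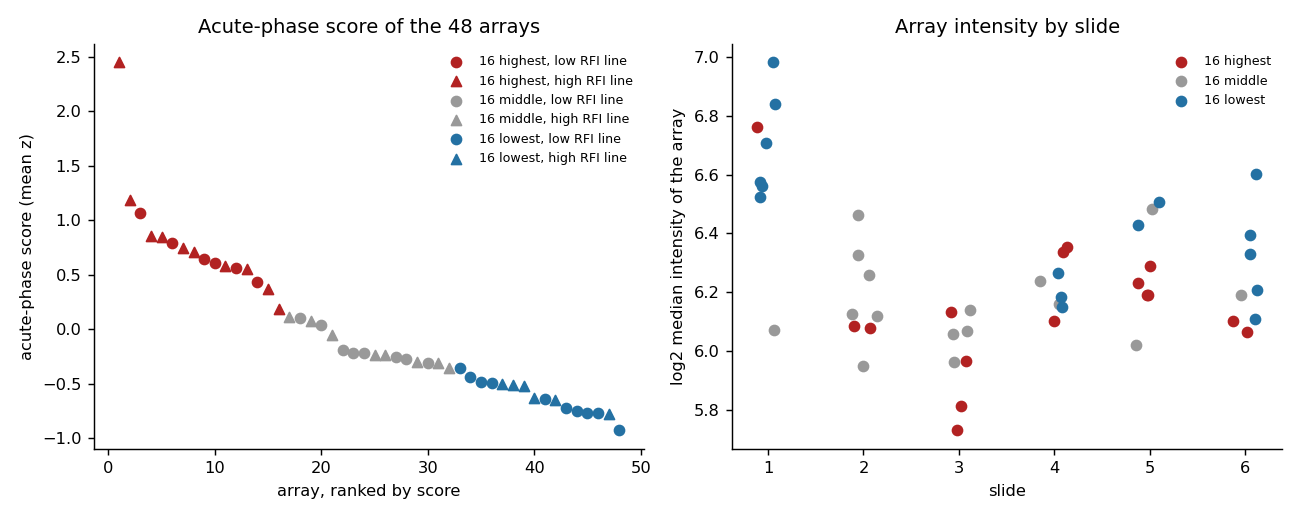
Left, the acute-phase score (mean z of 8 genes) of each of the 48 arrays by rank, coloured by group, with circles for the low RFI line and triangles for the high RFI line. Right, the log2 median intensity of each array by slide; slide 1 holds 6 of the 16 low arrays, and slides 2 and 3 hold none.

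The 8 score genes are described without a test, since their values chose the arrays. Serum amyloid A and CRP had the largest mean differences between the groups. SAA1, an apolipoprotein of inflammation, ran from 5.62 to 10.14 (median 7.07) on a log2 scale with the array median at 0 in the 16 high arrays and from 2.39 to 6.29 (median 5.08) in the 16 low arrays. SAA3, its close relative, ran from 7.02 to 10.75 (median 8.31) and from 4.07 to 7.55 (median 6.58). In both genes 14 of the 16 high arrays lay above every low array, with mean differences of 2.30 and 2.02. CRP, a pentraxin that binds microbial surfaces, ran from 7.32 to 9.96 (median 8.37) in the high group and from 5.44 to 7.71 (median 6.72) in the low group, a mean difference of 1.71. ITIH4 ran from 9.27 to 10.54 (median 9.76) and from 8.51 to 9.48 (median 9.04), and 13 high arrays lay above every low array in both CRP and ITIH4.

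The other score genes separated the groups less. SERPINA3, a protease inhibitor, had medians of 5.86 and 5.33 and a highest value of 7.44, which came from the array with the highest score. LBP, which presents bacterial lipopolysaccharide to its receptor, ran from 0.33 to 4.04 in the high group and from 0.21 to 2.11 in the low group, and only 5 high arrays exceeded the highest low array. HP, the haemoglobin-binding haptoglobin, ran from 10.63 to 11.18 in the high group and from 10.31 to 11.01 in the low group, a mean difference of 0.28. ORM1, a plasma lipocalin, ran from 9.54 to 10.48 and from 9.58 to 10.20, a mean difference of 0.25. The lowest ORM1 value of the 32 arrays was in the high group.

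The members did not form 1 axis. Across the 48 arrays, with all points sharing their array and its centring, ITIH4 followed the mean of the other 7 genes most closely (Pearson r = 0.84, as a description), then SAA1 (0.77), SAA3 (0.76), CRP (0.75) and SERPINA3 (0.61). HP (0.36) and LBP (0.33) followed it loosely, and ORM1 hardly (0.06). Between pairs, CRP and ITIH4 had r = 0.73 (Spearman rho = 0.65), which was 0.68 without the 2 arrays farthest from the CRP median, while LBP and HP had r = -0.14 (rho = -0.13). LBP and SAA3 had r = 0.38, which was 0.16 without the 2 arrays farthest from the LBP median. The array with the highest score had the highest CRP, ITIH4, LBP, SAA1, SAA3 and SERPINA3 readings of all 48, whereas its ORM1 reading lay below the mean (z = -0.43).

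**Figure D2:**
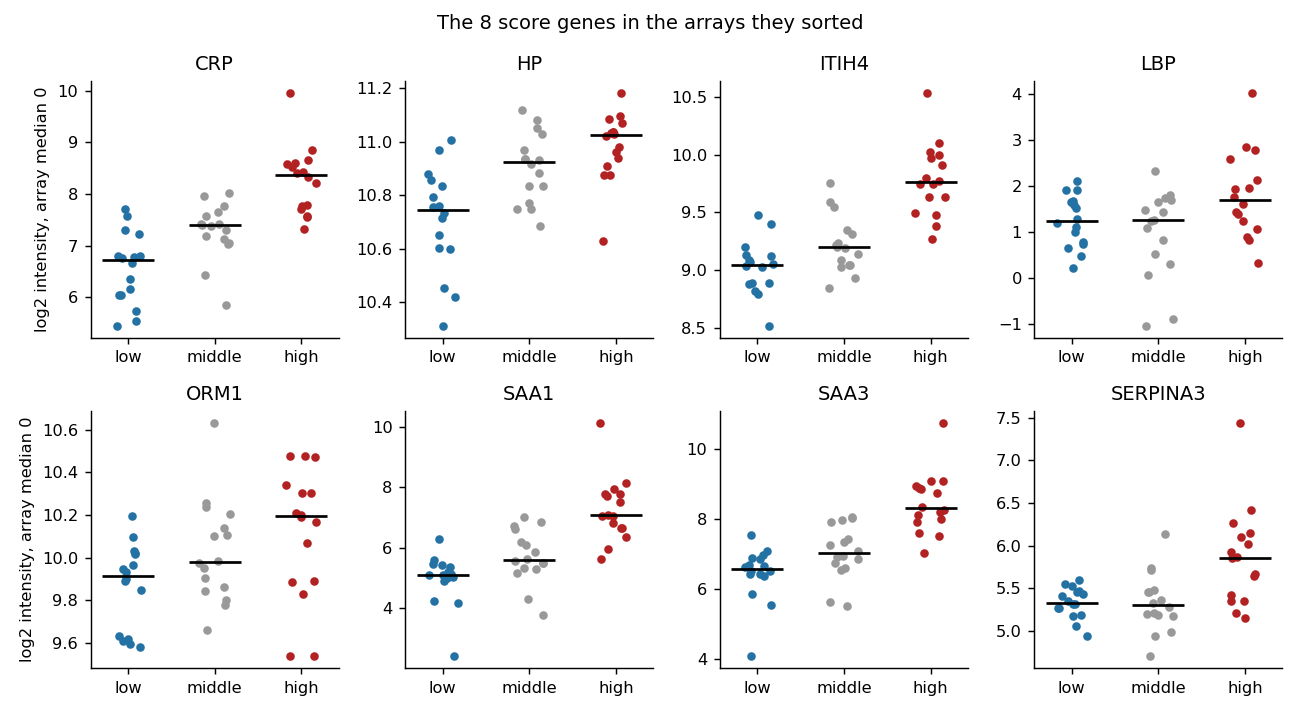
Each panel shows 1 score gene in the 16 low, 16 middle and 16 high arrays, as log2 intensity with the array median at 0; points are pigs and black lines are medians. SAA1, SAA3, CRP and ITIH4 separate most of the high from the low arrays, while LBP and ORM1 overlap broadly.

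Within slides, lines and diets the score genes are again only described, since the same readings chose the arrays. On the 4 slides that held both groups, CRP was higher in the high arrays by 1.70 (slide 1), 2.07 (slide 4), 1.99 (slide 5) and 2.71 (slide 6) on the log2 scale. HP differed by 0.02 on slide 1 (1 high against 6 low arrays), -0.01 on slide 4 (3 against 3), 0.34 on slide 5 (4 against 2) and 0.37 on slide 6 (2 against 5). In both lines SAA3 was higher in the high arrays, by 1.46 in the low RFI line and 2.40 in the high RFI line. By diet, the SAA3 difference was 1.30 with the high-fat diet and 2.84 with the low-fat diet. Other probes of the score genes, which did not enter the score, were higher in the high arrays too: 5 further SAA3 probes differed by 2.04 to 2.37, 2 further CRP probes by 2.01, 6 further HP probes by 0.39 to 0.42 and 4 further ITIH4 probes by 0.77 to 1.13. In these 4 genes the further probes differed by more than the probe in the score. The other ORM1 probe differed by 0.22 and followed the ORM1 probe of the score loosely (r = 0.50).

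Across all other genes, calls in the fit with line and diet included further acute-phase and complement genes, over-expressed in livers with a high score, most by modest amounts. G6PC (the enzyme that releases glucose from the liver) was called as under-expressed. None of these genes was called with array intensity as a covariate or without slide 1, as given below. With line and diet as covariates, 524 of 45209 probes differed at a P-BH (the P value adjusted by Benjamini-Hochberg over all probes) under 5% in limma, 349 higher and 175 lower in the high arrays, which is 1.16% of the probes tested. The split moved to 780 higher and 139 lower when arrays were centred on the 75th percentile. In the authors' deposited log2 table, which is median-centred too but holds signals without background subtraction and fewer probes (37351 tested), it was 2248 and 603. The array has no symbol for 285 of the 524. For named genes, each read by its brightest probe, 78 of 10592 were higher (0.736%) and 58 were lower (0.548%), and 2 of these 136 genes differed by a log2 FC (fold change) of 1 or more. At the cut-offs of the study (P under 0.01 and FC over 1.1), 3259 probes passed, and 18.6% of the probes had P under 0.05.

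These counts depended on slide, intensity and the genes of the score. With slide as a block 45 probes were called, with the log2 median intensity as a covariate 1 probe, and without slide 1 none (5482 probes at an unadjusted P under 0.05). The 1 probe called with intensity has no symbol and tracked SAA3, a score gene (Pearson r = 0.97, as a description). Leaving out slide 3, 5 or 6 gave 71, 52 or 82 probes. With HP left out of the score and the arrays chosen again, 6 probes were called, and 1 of the 136 genes. Of the 136 called genes, 7 kept their call with slide as a block and 0 with intensity as a covariate. The direction of all 136 was as reported under each of these settings, although most of the arrays are shared between them. The part of slide and array intensity in the individual calls was not tested further, so each P-BH below is given for the fit with line and diet, with the slide-block value beside the genes described in full. Without the array of the highest score, 514 probes were called, and of the 36 called genes named here G6PC, CP, CX3CL1 and BATF lost their call.

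**Figure D3:**
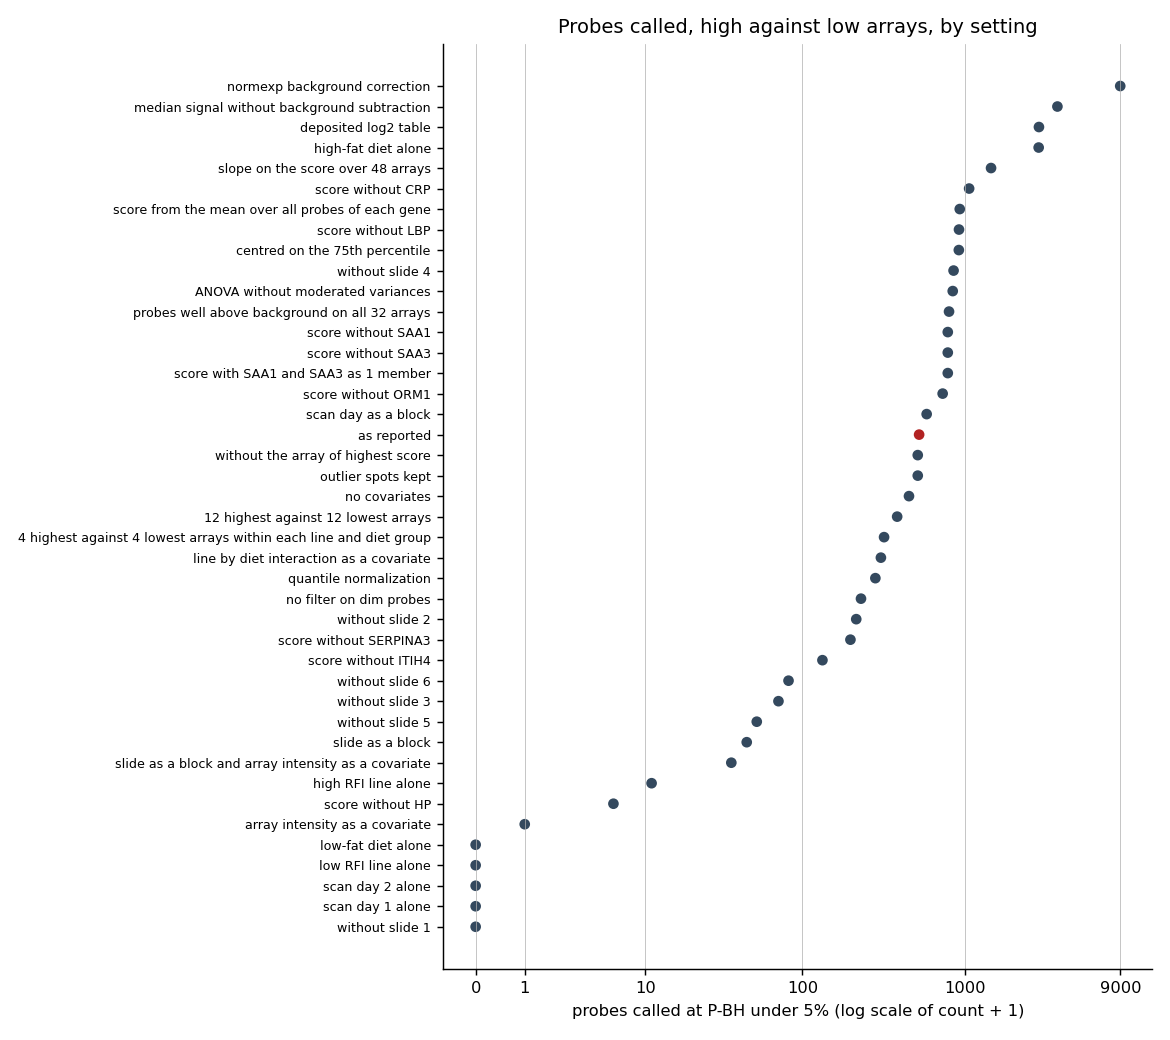
Number of probes called at a P-BH under 5% in the comparison of high with low arrays, on a log scale of the count plus 1, for every setting tried; the red point is the value as reported (524). Counts run from 0, without slide 1 and within each scan day, the low RFI line or the low-fat diet alone, to 8988 with the normexp background correction.

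Of the other positive acute-phase proteins, 7 of 21 measured members were called higher and none lower, beside 0.736% and 0.548% of all genes, and the median log2 FC was 0.30 beside -0.01 over all genes tested. After quantile normalization none of the 21 was called and the median was 0.15, with 16 values above 0. The 7 were FGB and FGG (chains of fibrinogen, the clotting protein), CP (ceruloplasmin, the plasma copper carrier), C3 (the central complement component), HPX (hemopexin, which binds free heme), PLG (plasminogen, the precursor of the clot-dissolving enzyme) and CFB (complement factor B). The probes of FGB and C3 are printed because C3 was the member whose brightest probe was still called with slide as a block and FGB the largest called difference.
FGB: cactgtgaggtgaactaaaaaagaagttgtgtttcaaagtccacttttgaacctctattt
C3: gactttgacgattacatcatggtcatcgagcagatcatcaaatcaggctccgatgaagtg
C3 ran from 8.94 to 9.45 (median 9.24) in the high arrays and from 8.76 to 9.16 (median 8.88) in the low arrays, on the log2 scale with the array median at 0. All 16 high arrays lay above the low median, although the groups overlapped. Its log2 FC was 0.31 (SE 0.06, P-BH = 0.0119), and all 7 of its probes read higher, 5 of them called. With slide as a block it was 0.37 (P-BH = 0.0494), so that of the 7 brightest probes this one alone kept its call, and with intensity as a covariate it was 0.33 (P-BH = 0.151).
FGB ran from 8.90 to 9.89 (median 9.19) in the high arrays and from 8.38 to 9.22 (median 8.95) in the low arrays. Its highest values exceeded every low array, while its lowest lay within the low range. The log2 FC was 0.37 (SE 0.09, P-BH = 0.0346), and 0.45 with slide as a block (P-BH = 0.131).
The other called members had log2 FC of 0.34 for CP, 0.30 for HPX, PLG and CFB and 0.28 for FGG. With slide as a block these were 0.47, 0.25, 0.28, 0.24 and 0.36. The brightest probes of these genes lost their call there (P-BH from 0.0591 for FGG to 0.184 for HPX), while 2 other CP probes kept it (0.68 and 0.53, P-BH = 0.0494 for each). With intensity as a covariate HPX was at 0.15 and CFB at 0.19, both smaller by more than 1.5 times, and FGB was at 0.40, CP at 0.38, FGG at 0.30 and PLG at 0.21, none called.

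Members that were not called lay on either side. ITIH3 (an inter-alpha-trypsin inhibitor chain) differed by 0.40 (P-BH = 0.0623), A2M (a broad protease inhibitor) by 0.34 (P-BH = 0.0595), AGT (angiotensinogen) by 0.38 (P-BH = 0.0536) and FGA (the remaining fibrinogen chain) by 0.45 (P-BH = 0.108). HAMP, which encodes the iron hormone hepcidin, differed by 0.17 with an SE of 0.55. It ranged from 3.68 to 7.81 in the high arrays and from 1.86 to 8.54 in the low arrays, so the spread between pigs was far wider than the difference. C9 (-0.16), of the complement attack complex, and MBL2 (-0.23), a lectin that starts complement, had values below 0 and were not called. SERPINA1, a protease inhibitor classed with the acute-phase proteins, differed by 0.09 (SE 0.05, P-BH = 0.336).

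Counts at an unadjusted P under 0.05, given below beside lists without calls, are to be read against 1059 higher and 1033 lower of all 10592 genes.
No member of the negative acute-phase proteins was called among 17 measured, and their median log2 FC was 0.13. At an unadjusted P under 0.05, 7 were higher and none lower. Albumin (ALB) differed by 0.16 (SE 0.08, P-BH = 0.261), transthyretin (TTR, a thyroid hormone carrier) by 0.13, transferrin (TF) by 0.13 and the vitamin A carrier RBP4 by 0.10. The values furthest below 0 were -0.25 for SERPINA6 (the cortisol carrier) and -0.18 for PON1 (an enzyme of high density lipoprotein), with P-BH of 0.344 and 0.366. The sign of the list depended on scaling and intensity: its median was -0.05 after quantile normalization, 0.05 with slide as a block, 0.00 with intensity as a covariate and -0.05 with both (12 of 17 values below 0). It was 0.20 with the high-fat diet alone, where IGFALS (a subunit of the circulating IGF carrier complex) was called higher, and -0.05 with the low-fat diet alone (12 of 17 below 0). No member was called lower in any of these fits.

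**Figure D4:**
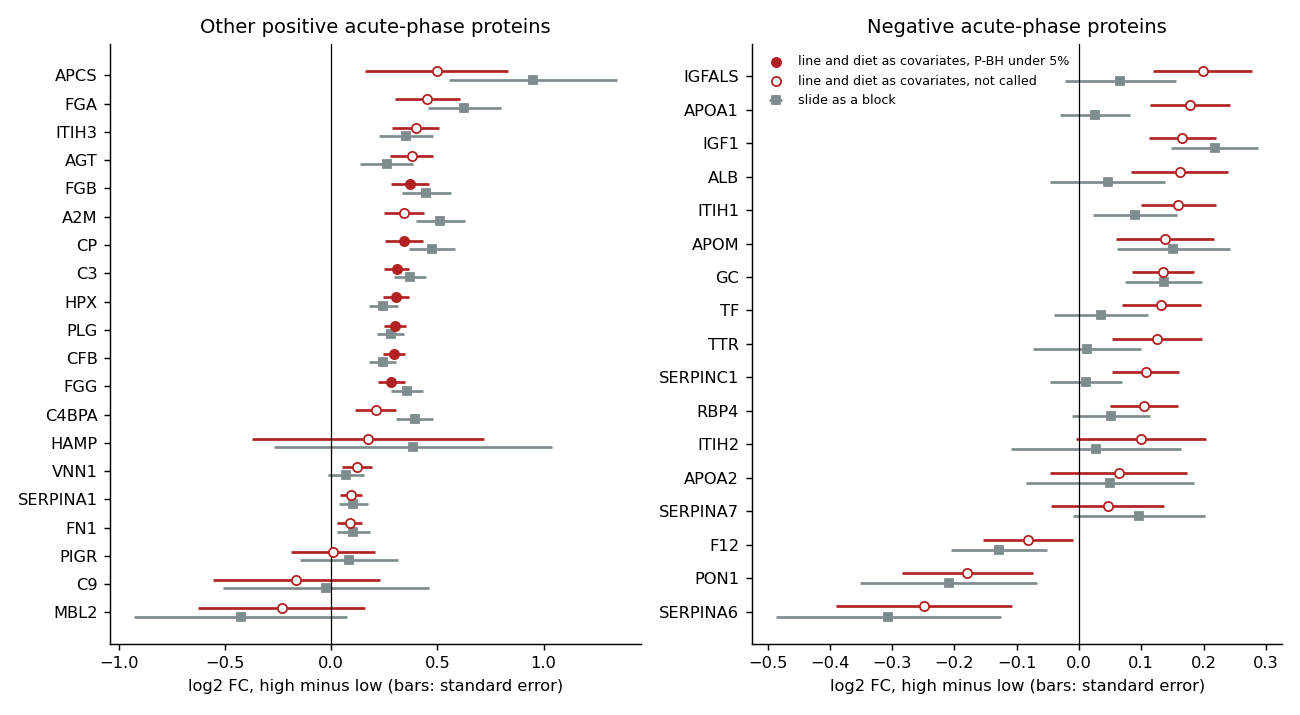
Log2 FC of high minus low arrays for members of the other positive (left) and the negative (right) acute-phase proteins, 1 probe per gene, with standard errors; red points are from the fit with line and diet (filled where P-BH is under 5%), grey squares from the fit with slide as a block. Most positive proteins lie above 0 in both fits, while most of the negative ones that lie above 0 are closer to 0 with slide as a block.

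The signalling upstream of these proteins was not called in the fit with line and diet. In the list of IL6 receptor, JAK and STAT3 signalling, 0 of 21 members passed a P-BH of 5% in limma (5 higher and 2 lower at an unadjusted P under 0.05), and the median log2 FC was 0.03. SOCS3, the feedback inhibitor that STAT3 induces, ran from 1.26 to 3.68 (median 2.37) in the high arrays and from 0.46 to 2.62 (median 1.69) in the low arrays, and differed by 0.81 (SE 0.26, P-BH = 0.0932). In 12 of 16 high arrays it exceeded the low median. STAT3 itself differed by 0.31 (SE 0.10, P-BH = 0.0826), PIM1 (a kinase induced by STAT3) by 0.51 (P-BH = 0.145) and IL6ST (the shared signalling receptor gp130) by 0.18 (P-BH = 0.143). IL6 was near the floor of the array (medians of -4.16 and -4.38, well above background on 13 of 32 arrays) and differed by -0.06 with an SE of 0.38. The receptors and kinases IL6R (0.09), JAK1 (0.03) and JAK2 (0.00) had values close to 0. With the high-fat diet alone, PIM1 and STAT3 were called higher and PIAS3 lower of the 21 members. In that fit 392 of all 10592 genes were called higher and 379 lower. STAT3 was called in 7 of 41 alternative settings, SOCS3 in 6 of 42 and PIM1 in 3 of 42.

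In the wider list of IL1, TNF, TLR and NF-kappaB signalling 0 of 33 members were called in limma (8 higher and 1 lower at an unadjusted P under 0.05), with a median of 0.06. With the high-fat diet alone 2 of the 33 were called higher and 1 lower. The complement list had 3 of 27 called higher (beside 0.736% of all genes), C3, CFB and C1R (the protease that starts the classical pathway, log2 FC of 0.19), with 24 values above 0 and a median of 0.19. C1R was at 0.16 with slide as a block (P-BH = 0.289). C3 and CFB also belong to the positive acute-phase list. The coagulation list had 4 of 20 called higher (beside the same 0.736%), FGB, FGG, PLG and PROC (protein C, an anticoagulant protease, log2 FC of 0.21), and a median of 0.07. FGB, FGG and PLG are counted in the positive acute-phase list too, so C1R and PROC were the called members these lists added. Each had 2 probes, of which 1 was called, and the other was at 0.05 for C1R and -0.03 for PROC. After quantile normalization neither list had a called member. PROC shrank to 0.13 with slide as a block (P-BH = 0.449) and to 0.09 with intensity as a covariate (P-BH = 0.739). CP, again a positive acute-phase protein, was the 1 called member of 20 in iron and trace metal handling. C4BPA, which restrains complement, was at 0.21 by its brightest probe (P-BH = 0.235) and was called when slide and intensity both entered the fit (0.49, P-BH = 0.00943).

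Interferon-stimulated genes lay below 0 as a list, with 30 of 33 values negative and a median of -0.31, but 0 were called in limma (none higher and 3 lower at an unadjusted P under 0.05). OAS1, an antiviral enzyme that senses double-stranded RNA, ran from -0.45 to 7.18 in the high arrays and from 0.91 to 7.55 in the low arrays, and differed by -1.39 with an SE of 0.74. The list's median was -0.49 with slide as a block and -0.18 with intensity as a covariate. It was 0.12 in the low RFI line alone and -0.89 in the high RFI line alone. No difference between lines passed the adjusted test of the interaction for any probe.

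In metabolism, the single called gene of the lists was G6PC. Its probe is printed beside that of DEFB1, since they had the largest fall and the largest rise among called named genes.
G6PC: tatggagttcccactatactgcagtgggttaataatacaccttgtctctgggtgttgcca
DEFB1: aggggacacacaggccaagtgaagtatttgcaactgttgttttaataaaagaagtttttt
G6PC ran from 2.30 to 4.79 (median 3.41) in the high arrays and from 3.28 to 5.35 (median 4.36) in the low arrays. In 13 of the 16 high arrays it lay below the low median. It fell by 0.90 on the log2 scale (SE 0.23, P-BH = 0.0492), and by 0.86 with slide as a block (P-BH = 0.282). Without the array of the highest score it fell by 0.85 and was no longer called (P-BH = 0.0617). Over 42 alternative settings G6PC kept its call in 14 and lost it in 28, with a fall in each.
All 3 of its probes read lower and 2 were called. Of the rest of the gluconeogenesis and glycogen list, 0 of 16 further members were called and the list's median was -0.02. The lists of cytochrome P450 and drug metabolism (30 measured), bile acids (14), fatty acid synthesis (21), cholesterol (21), fatty acid oxidation (24), amino acid breakdown and urea cycle (30) and respiratory chain (51) had none called in limma. Within them, values at an unadjusted P under 0.05 were 1 higher and 2 lower for cytochrome P450, 1 and 6 for fatty acid synthesis, 0 and 3 for fatty acid oxidation, 2 and 2 for amino acids, 0 and 5 for the respiratory chain, and none for bile acids and cholesterol. Their medians lay between -0.11 and 0.02. By diet, the fatty acid synthesis median was 0.14 with the high-fat diet and -0.32 with the low-fat diet (3 of 21 values above 0). The bile acid median was 0.12 and -0.22. These differences between diets were not tested.

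DEFB1, a beta-defensin that kills bacteria at epithelia, had the largest rise of a called named gene. It ran from 3.15 to 6.94 (median 5.75) in the high arrays and from 2.92 to 5.08 (median 3.85) in the low arrays. In 13 of 16 high arrays it exceeded the low median, and the remaining high arrays lay within the low range. The log2 FC was 1.53 (SE 0.33, P-BH = 0.0269), and 1.99 with slide as a block (P-BH = 0.0504). The array carries this probe sequence 3 times, once without a symbol, and that copy read a log2 FC of 1.53 as well (P-BH = 0.0255). Of its 4 named probes tested 2 were called, and their log2 FC ran from 0.11 to 1.53.

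The 12 largest rises among called genes measured above background on all 32 arrays were, after DEFB1, CLDN12 (1.08), SLC24A2 (0.82), WBSCR17 (0.79), BATF (0.76), GPC2 (0.71), RECQL4 (0.67), SLC52A2 (0.59), HS6ST1 (0.56), GPR126 (0.50), IFNGR2 (0.47) and LYVE1 (0.46). CLDN12 is a tight-junction claudin, SLC24A2 an ion exchanger, BATF a transcription factor of lymphocytes, GPC2 a heparan sulfate proteoglycan and RECQL4 a DNA helicase. SLC52A2 is a riboflavin transporter, HS6ST1 a heparan sulfate sulfotransferase, IFNGR2 a chain of the interferon-gamma receptor and LYVE1 a hyaluronan receptor of sinusoidal endothelium. The other LYVE1 probe was at 0.01, and 1 of 3 SLC52A2 probes was called, with values from -0.05 to 0.59.
CLDN12 ran from 2.49 to 5.10 (median 4.28) in the high arrays and from 2.26 to 4.30 (median 2.83) in the low arrays, and all 3 of its probes were called. Its log2 FC was 0.63 with slide as a block (P-BH = 0.494), and it alone of these 12 rises shrank by more than 1.5 times there.
IFNGR2 ran from 3.41 to 4.53 in the high arrays and from 2.94 to 3.69 in the low arrays, with all 16 high arrays above the low median (P-BH = 0.0119, and 0.161 with slide as a block).
GPC2 ran from -2.20 to -0.45 (median -1.70) and from -2.86 to -1.79 (median -2.31), again with all 16 above the low median. It was called at a log2 FC of 0.71 (P-BH = 0.0106) and stayed called with slide as a block (0.83, P-BH = 0.0246) and with slide and intensity together (0.81, P-BH = 0.0491).
RECQL4 kept its call with slide as a block (0.88, P-BH = 0.0494) but not with both (0.92, P-BH = 0.0642). Of the 36 called genes named in all, C3, GPC2 and RECQL4 were the 3 whose brightest probe was still called with slide as a block, and none was called with intensity as a covariate.

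The 12 largest falls were smaller. After G6PC they were ARL2BP (-0.63), ITPKA (-0.60), ADCY9 (-0.54), LPIN2 (-0.47), CCDC24 (-0.44), B3GNT1 (-0.43), KLHDC10 (-0.41), ADIPOR2 (-0.40), SLC25A13 (-0.37), KIAA0922 (-0.37) and LDHA (-0.36). ADCY9 makes cyclic AMP, LPIN2 is a phosphatidate phosphatase of lipid synthesis, ADIPOR2 is a receptor for adiponectin, SLC25A13 carries aspartate and glutamate across the mitochondrial membrane and LDHA interconverts pyruvate and lactate.
LPIN2 ran from 3.48 to 4.57 (median 4.27) in the high arrays and from 4.18 to 5.11 (median 4.64) in the low arrays, with none of the 16 high arrays above the low median. ADIPOR2 ran from 7.43 to 8.46 (median 7.83) and from 7.95 to 8.63 (median 8.25), and all 6 of its probes read lower, 3 of them called. Both were of similar size with slide as a block (-0.51 and -0.41) and neither was then called (P-BH of 0.187 and 0.210). B3GNT1 alone of the 12 falls shrank by more than 1.5 times, to -0.26.

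**Figure D5:**
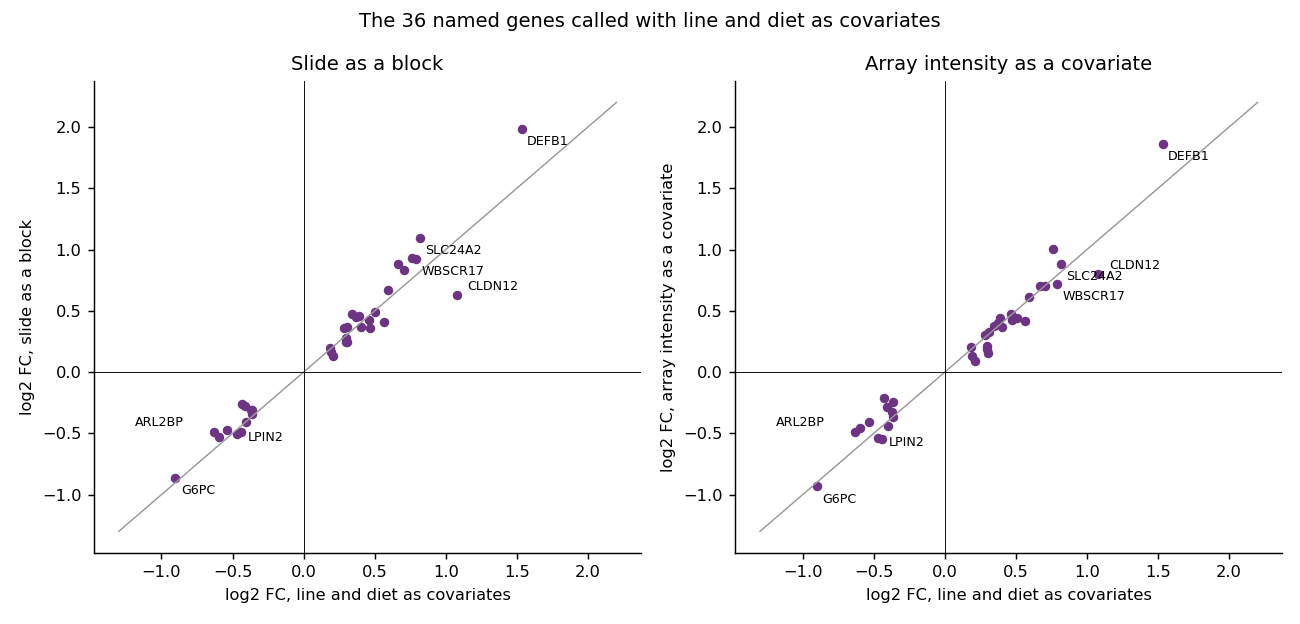
Log2 FC of the 36 named genes called with line and diet as covariates (x axis) against the log2 FC with slide as a block (left) and with array intensity as a covariate (right); the grey line marks equal values. All points keep their sign, and CLDN12 lies farthest below the line on the left.

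The largest differences of all were read by probes without a symbol, and they followed the score genes. They are printed because they carried the strongest calls; in the first pair, which share 52 bases, the capitals mark the shared run.
unnamed probe of largest rise: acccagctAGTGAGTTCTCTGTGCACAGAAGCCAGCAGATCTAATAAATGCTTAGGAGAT
unnamed probe of second largest rise: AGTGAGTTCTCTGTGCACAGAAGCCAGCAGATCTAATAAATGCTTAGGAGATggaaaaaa
unnamed probe of lowest P-BH: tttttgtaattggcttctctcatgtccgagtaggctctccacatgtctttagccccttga
The first pair differed by 2.14 and 2.03 on the log2 scale and tracked SAA1 across the 48 arrays (Pearson r = 0.99 for each, as a description). The probe of lowest P-BH differed by 1.55 (SE 0.18, P-BH = 8.36e-05), tracked SAA3 (r = 0.97) and was the 1 probe called with intensity as a covariate (1.52, P-BH = 0.0160). Of the 285 called probes without a symbol, 15 tracked a score gene at r of 0.9 or more. These probes cannot be counted as evidence apart from the score, although they are counted among the 524. Their P-BH values are a description only, also with intensity as a covariate. Whether they read transcripts of the score genes was not tested. They stayed in the test because none had a score gene's symbol or shared an accession or 20 bases with a score-gene probe. The 27 probes left out were those of the score genes, with any that shared an accession or 20 bases with them.

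The comparison was also set within lines and diets. In pigs fed the high-fat diet 2840 probes were called (9 high against 8 low arrays) and in pigs fed the low-fat diet 0 (7 against 8, with 3825 at an unadjusted P under 0.05). In the low RFI line alone 0 were called (6 against 10, 3758 at an unadjusted P under 0.05) and in the high RFI line 11 (10 against 6). Differences between these subsets did not pass the adjusted test in limma: the interaction of group with diet called 0 probes (6773 at an unadjusted P under 0.05, 14.98%) and that with line called 0 (3017, 6.67%). For SLC25A13 and ADCY9, the log2 FC was -0.58 and -0.87 with the high-fat diet and -0.04 and -0.12 with the low-fat diet, and for C3 it was 0.36 and 0.24. The cholesterol synthesis and uptake list, near 0 over both diets, had a median of 0.41 with the high-fat diet (21 of 21 values above 0) and -0.76 with the low-fat diet (1 of 21 above 0). The cytosolic ribosomal proteins had medians of 0.17 (53 of 56 above 0, 10 called higher) and -0.08 (9 of 56 above 0, none called). With the high-fat diet 392 of the 10592 genes were called higher and 379 lower. Among them were 8 lower of 42 in secretory transport, and 6 lower and 1 higher of 24 in fatty acid oxidation. The medians of secretory transport and fatty acid oxidation were -0.09 and -0.14 there. With the low-fat diet none was called, and the medians were 0.18 (37 of 42 above 0) and 0.12 (15 of 24 above 0). The difference of these lists between diets was not tested.

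The middle 16 arrays, which the grouping left out, offered a comparison with arrays not used. Their scores ran from -0.35 to 0.11 with an SD of 0.16. The slope of expression on the score called 0 probes among them in limma (1484 at an unadjusted P under 0.05, 3.28%). Of the 136 called genes, 89 (65.4%) had a slope in the direction of the high against low comparison, beside 55.4% of all genes tested, and of the 524 called probes 300 (57.3%) did so, beside 54.8% of all probes. By direction, 48 of the 78 higher genes and 41 of the 58 lower genes did so.

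Cell type markers were read beside these results. Albumin was among the brightest genes on the arrays and 8 of 8 measured hepatocyte markers were above background on all 32 arrays, so the tissue read as liver. Of the 8, FGB, also an acute-phase protein, was called, and the summed linear level of the list ran from 7366 to 10250.0 in the high arrays and from 6097 to 9355 in the low arrays (in multiples of the array median). The list's median log2 FC of 0.14 was 0.04 with slide as a block, 0.02 with intensity as a covariate and -0.02 after quantile normalization. None of 12 Kupffer cell and macrophage markers was called, although all 12 values lay above 0 (median 0.16, and 0.32 with slide as a block, 0.35 with intensity as a covariate and 0.43 with both), and the summed level ran from 587 to 800.3 in the high arrays and from 509.8 to 743 in the low arrays. CD163, the haemoglobin scavenger receptor of macrophages, was at 0.41 without a call and was called in 4 of its probes with slide and intensity together. For neutrophils 0 of 10 were called, all 10 were above 0 (median 0.23), and the summed level ran from 23.9 to 36.4 and from 22.2 to 32.9. At an unadjusted P under 0.05, 4 Kupffer cell and 2 neutrophil markers were higher and none lower. The ranges of these sums overlapped between groups, and MPO, a defining neutrophil enzyme, was too dim to be tested. The T and NK cell (16 measured), B and plasma cell (7), dendritic cell (3), cholangiocyte (8) and red blood cell (5) lists had none called, with medians of 0.01, 0.09, 0.17, -0.30 and -0.19. With slide as a block the T and NK cell median was 0.15 (13 of 16 values above 0) and the B and plasma cell median 0.20, and with intensity as a covariate they were 0.13 and 0.18. The red blood cell median was -0.08 and -0.04 in these fits. By diet, the dendritic cell median was 0.21 with the high-fat and -0.09 with the low-fat diet. Of the cholangiocyte markers 4 were lower and 1 higher at an unadjusted P under 0.05, and of the T and NK, B and dendritic cell markers 1 each was higher. LYVE1 was called by 1 of its 2 probes among 11 endothelial markers (list median 0.07, and 0.11 both with slide as a block and with intensity as a covariate). The other LYVE1 probe was at 0.01. LUM, a collagen-binding proteoglycan, was called among 12 stellate cell and fibroblast markers (0.19, list median 0.05). Of its 8 probes 1 was called and 7 lay above 0, with log2 FC from -0.73 to 0.68. The stellate cell and fibroblast median was 0.09 with intensity as a covariate and -0.06 without slide 1. The part of cell composition in the called genes was not tested.
The remaining lists had no called member in limma other than CX3CL1 (a membrane-bound chemokine, 0.41) among 25 chemokines and receptors and CISH (a feedback inhibitor of cytokine and growth hormone receptors, 0.39) among 15 genes of the growth hormone axis. Medians were 0.06 for 56 cytosolic ribosomal proteins, with 51 values above 0 (31 after quantile normalization and 37 with intensity as a covariate), 0.10 for 24 endoplasmic reticulum chaperones, -0.02 for 42 genes of secretory transport, -0.18 for 15 glucocorticoid and stress genes, -0.20 for 24 cell cycle genes (-0.05 with slide as a block, -0.01 with intensity as a covariate, 0.01 without slide 1, 0.25 in the low RFI line alone with 19 of 24 values above 0, and -0.73 in the high RFI line alone with 5 of 24 above 0), -0.09 for 34 proteasome genes, -0.07 for 16 heat shock proteins and -0.01 for 22 antioxidant enzymes. The proteasome median was 0.05 in the low RFI line alone (23 of 34 values above 0) and -0.17 in the high RFI line alone (3 of 34). It was -0.04 with intensity as a covariate. The heat shock median was 0.09 and -0.15 in these lines, and 0.03 with intensity as a covariate. At an unadjusted P under 0.05 the ribosomal list had 10 higher and none lower, the chaperones 4 and none, and secretory transport 1 and 3. Glucocorticoid genes had 1 and 1, the cell cycle 3 and 5, the proteasome none and 2, heat shock proteins none and 2, and antioxidant enzymes 1 and 2.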

How the data were processed

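Liver RNA of 48 pigs was measured on a custom porcine Agilent array, 1 dye and 1 array per pig. The authors deposited scanner output, whose intensity values are background-subtracted and not normalized across arrays, and a log2 table of 37378 probes, which equals the log2 median spot signal less a constant per array. The submitters' processing notes name R 2.10.0.

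Control spots were left out, 483 outlier spots were set to missing, and log2 intensities were centred on the array median over the 45236 probes that stood well above background on 12 or more arrays. The score used the brightest probe of each gene. SAA3 was found through its accession, since the scanner output gives it another name. Limma 3.58.1 in R 4.3.3 was fitted to the 32 arrays with group, line and diet. Score-gene probes, and probes sharing an accession or 20 bases with them, were left out (27). Steps were tested on simulated data. Promoter motifs were planned and not run. Named genes were the score genes, members of the acute-phase and IL6 lists, called list members (up to 4 per direction), and the 12 largest rises and falls. Genes named in other lists outside this rule (OAS1, CD163, MPO) were singled out after their values were seen. Some list members count in their lists and are not reported here by name. The members and lists were chosen with earlier results of these data known. The number of arrays limits the precision, for dim probes signal over background too.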

Additional observations from a re-analysis of the deposited data

How the results depend on the processing

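Under each of 41 alternative settings, the called genes that could be tested had the direction reported (136 in all, 132 with probes above background on all arrays and 129 in the deposited table). The count of 524 probes was within 1.5 times of itself with outlier spots kept, scan day as a block, no covariates, 12 against 12 arrays, the score without ORM1, SAA1 or SAA3, SAA1 and SAA3 as 1 member (chosen after seeing the data) and the highest-scoring array left out (also added later). Counts were higher with the 75th percentile (919), normexp (8988), the median signal without background subtraction (3701), probes above background on all 32 arrays (800), ANOVA without moderated variances (843), the slope over 48 arrays (1449), the score without CRP (1063) or LBP (921), the score from all probes of each gene (931), the deposited log2 table (2851), the high-fat diet alone (2840) and without slide 4 (853). They were lower with quantile normalization (282), no filter on dim probes (230), the line by diet interaction (305), 4 against 4 arrays within each group (319), and the score without ITIH4 (133), SERPINA3 (198) or HP (6). Slide and intensity gave 45 (slide as a block), 1 (intensity as a covariate) and 36 (both, added later). Leaving out a slide gave 0 (slide 1), 215 (slide 2), 71 (slide 3), 52 (slide 5) and 82 (slide 6). Parts of the arrays gave 0 (low RFI line), 11 (high RFI line), 0 (low-fat diet), 0 (scan day 1) and 0 (scan day 2), with fewer arrays in each. At an unadjusted P under 0.05 the counts of 0 became 5482 (slide 1 left out), 3758 (low RFI line), 3825 (low-fat diet), 6387 (scan day 1) and 3457 (scan day 2). The causes of these changes in count, fewer arrays or probes among them, were not tested. No paired analysis was possible because the labels give every sample the same replicate number. The planned promoter motifs were not run. Nearness of the arrays' scores at the edges of the groups, array brightness and the dimmest probes may limit these calls. Their part was not tested apart from these settings. With 12 against 12 arrays, which leaves out the arrays nearest the edges, 384 probes were called.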
